A study of Mus musculus with 9 samples.

Results

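Efferocytosis is the uptake of dying cells by macrophages and other phagocytes. The 8 genes described here encode receptors and bridging ligands of that process: the TAM receptor kinases Mertk, Axl and Tyro3, their ligands Gas6 and Pros1, the phosphatidylserine receptor Timd4, the bridging protein Mfge8 and the lipid-sensing receptor Trem2. They were taken by symbol from a table of 34198 gene symbols, and all 8 were found. The table covers microdissected atrioventricular (AV) nodes, the tissue that slows and passes on the impulse from atria to ventricles, of C57BL/6J mice. It holds 9 bulk RNA-seq libraries in 3 groups of 3.

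The first group is labelled Control (libraries 1 to 3), with no genotype or treatment named beyond the strain. The second is Cx3cr1 Cx43-/- (libraries 4 to 6), in which connexin 43 (Gja1) is deleted through Cx3cr1, a gene of macrophages, monocytes and some other myeloid cells. The third is macrophage-depleted Cd11bDTR (libraries 7 to 9), in which the diphtheria toxin receptor is driven by Cd11b (Itgam), so that monocytes and neutrophils, which also carry CD11b, can be hit along with macrophages. The labels name no age, sex, toxin dose or interval after toxin, and do not say whether nodes of several mice went into a library. Libraries of a group are biological replicates by the series' design text, and p-values below rest on the spread between libraries. Those of single genes use a spread pooled over all 9 libraries, and those of ratios within a library use the compared groups only.

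A dying cell turns the lipid phosphatidylserine to its outer face. TIMD4 binds that lipid directly and tethers the cell. GAS6 and protein S (Pros1) bind it and at the same time bind TAM receptors, whose kinase domains signal for engulfment. MERTK is the TAM receptor of resident macrophages, and in the heart it serves the uptake of dead cardiomyocytes and of the debris that living cardiomyocytes shed. AXL is also made by fibroblasts, endothelium and smooth muscle. MFGE8 links phosphatidylserine to alpha-v integrins, and TREM2 binds lipids and lipoproteins and signals through the adaptor TYROBP. Timd4 is a marker of long-lived, self-renewing cardiac macrophages.

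The stretches before the start sites of Timd4, Mertk, Axl and Trem2 are shown because macrophages make all 4 and because Timd4 alone among them was called in depleted nodes on the deposited scale. Each is the 250 bases upstream of the RefSeq start, on the sense strand, in build GRCm38.p6, whereas the submitters' processing notes name mm9 for the expression values. Timd4 lies at chr11:46810549-46810798 (plus strand), Mertk at chr2:128698665-128698914 (plus), Axl at chr7:25788734-25788983 (minus) and Trem2 at chr17:48346151-48346400 (plus). Capitals mark matches, on either strand, to the PU-box GAGGAA, a motif of the myeloid transcription factor PU.1, which was searched by its letters.
Timd4: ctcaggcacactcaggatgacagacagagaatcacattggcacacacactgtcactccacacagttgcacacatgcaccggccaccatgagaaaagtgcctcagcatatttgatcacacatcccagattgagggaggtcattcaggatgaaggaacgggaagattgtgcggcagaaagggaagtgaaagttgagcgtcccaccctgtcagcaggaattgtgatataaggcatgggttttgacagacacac
Mertk: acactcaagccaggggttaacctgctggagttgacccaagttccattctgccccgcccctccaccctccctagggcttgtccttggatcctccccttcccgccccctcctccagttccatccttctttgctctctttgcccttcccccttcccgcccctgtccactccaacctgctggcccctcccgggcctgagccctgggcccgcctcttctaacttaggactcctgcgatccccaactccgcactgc
Axl: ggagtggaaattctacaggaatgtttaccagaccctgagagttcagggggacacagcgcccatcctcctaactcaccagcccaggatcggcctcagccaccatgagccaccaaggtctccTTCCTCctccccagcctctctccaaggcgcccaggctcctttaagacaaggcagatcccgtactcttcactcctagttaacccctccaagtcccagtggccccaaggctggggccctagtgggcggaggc
Trem2: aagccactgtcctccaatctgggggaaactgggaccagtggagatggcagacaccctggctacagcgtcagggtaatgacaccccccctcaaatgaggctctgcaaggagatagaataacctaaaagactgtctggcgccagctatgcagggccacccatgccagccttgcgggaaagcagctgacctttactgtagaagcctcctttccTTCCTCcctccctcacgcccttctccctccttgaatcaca
The Axl and Trem2 windows held a PU-box on the other strand, 130 and 40 bases before the start, as did that of Mfge8. The PU-box was found in 23.3% of 32851 windows of that length. The Timd4 and Mertk windows held no match, and the TATA box letters TATAAA, found in 12.4% of windows, were in none of the 8. Such matches describe letters only, and no binding was measured. CpG dinucleotides numbered 4 in the Timd4 and Trem2 windows, 5 in that of Axl and 7 in that of Mertk, against a median of 6 over all windows.

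Values are CPM, counts scaled to a total of 1000000 per library. Between 28.3% and 48.7% of the CPM total of a library lay in listed genes, with the lowest share in depleted library 9, and 1 CPM stood for about 51.9 to 64.9 reads. Differences were tested with limma on log2(CPM + 0.5), over the 12925 genes that reached 1 CPM in 3 or more libraries. A gene is called where its p, adjusted by Benjamini-Hochberg over those genes, was under 0.05. The log2 scale with that pseudocount understates the change of genes near 0. In depleted against control nodes the median log2 change of all genes was -0.49, with 417 genes called higher and 4261 lower. That median was -0.18 after rescaling the listed genes to a common total, and -0.03 after median-of-ratios scaling, which sets the typical gene equal across libraries and gave 1722 higher and 1651 lower. Directions of single genes are therefore given with both rescalings where they differ. The driver gene Itgam overlapped between groups, and Gja1 stood at 219 ± 36.4 CPM in Cx3cr1 Cx43-/- against 207 ± 41.8 in control (SD, n = 3). Cardiomyocytes and other cells of the node make Gja1 too, so its level in whole tissue does not check a deletion in macrophages.

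The labelled depletion was checked against 11 resident macrophage markers. Their summed level was 250.76 to 396.01 CPM in control and 63.34 to 72.12 CPM in depleted libraries, and 9 of the 11 were called lower, with a median log2 change of -2.53. The other two, Fcgr1 and Lyve1, were not called. Monocyte markers summed to 36.77 to 50.68 CPM in control and 83.84 to 103.52 CPM in depleted libraries. In the same libraries the sums of fibroblast markers (1725.25 to 1891.46 against 2109.67 to 2325.53 CPM), Schwann cell markers (17.38 to 20.66 against 33.07 to 43.91 CPM), endothelial markers (160.27 to 285.17 against 330.86 to 457.59 CPM), cardiomyocyte markers (9976.09 to 17963.9 against 20972.2 to 25493.4 CPM) and AV node conduction markers (53.75 to 71.86 against 250.01 to 297.43 CPM) were also below those of control. These sums are on the deposited scale, where the median log2 change of all genes was -0.49. After median-of-ratios scaling the median log2 change of fibroblast markers was 0.15, and none was called on either scale. On that scaling it was -0.20 for cardiomyocyte, -0.32 for endothelial, -0.60 for Schwann cell and -1.34 for AV node conduction markers. The part of these cell types in the results below was not tested. In bulk tissue, fewer cells of a type and less RNA per cell cannot be told apart.

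In control nodes the bridging ligands and Axl were abundant and the macrophage receptors scarce. Per kilobase of exon (GENCODE M21 gene models), Gas6 was highest at 76.9 ± 16.7 CPM per kb, followed by Mfge8 at 60.4 ± 1.90 (SD, n = 3). Axl stood at 24.6 ± 4.07 and Pros1 at 9.26 ± 0.872 CPM per kb. Trem2 at 1.71 ± 0.479, Timd4 at 1.52 ± 0.461 and Mertk at 1.38 ± 0.526 CPM per kb did not differ beyond their spread, and Tyro3 was lowest at 0.681 ± 0.287. The ranges of Gas6 (62.4 to 95.2) and Mfge8 (58.3 to 61.7) did not overlap, whereas that of Tyro3 (0.358 to 0.905) reached into that of Mertk (0.865 to 1.92). Among the TAM receptors of the whole node, Axl transcripts thus stood above those of Mertk and Tyro3 in every control library. In depleted nodes the order from Gas6 (108 ± 31.2 CPM per kb) through Mfge8, Axl and Pros1 to Trem2 was the same, and Timd4 was last at 0.0506 ± 0.0877.

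**Figure D1:**
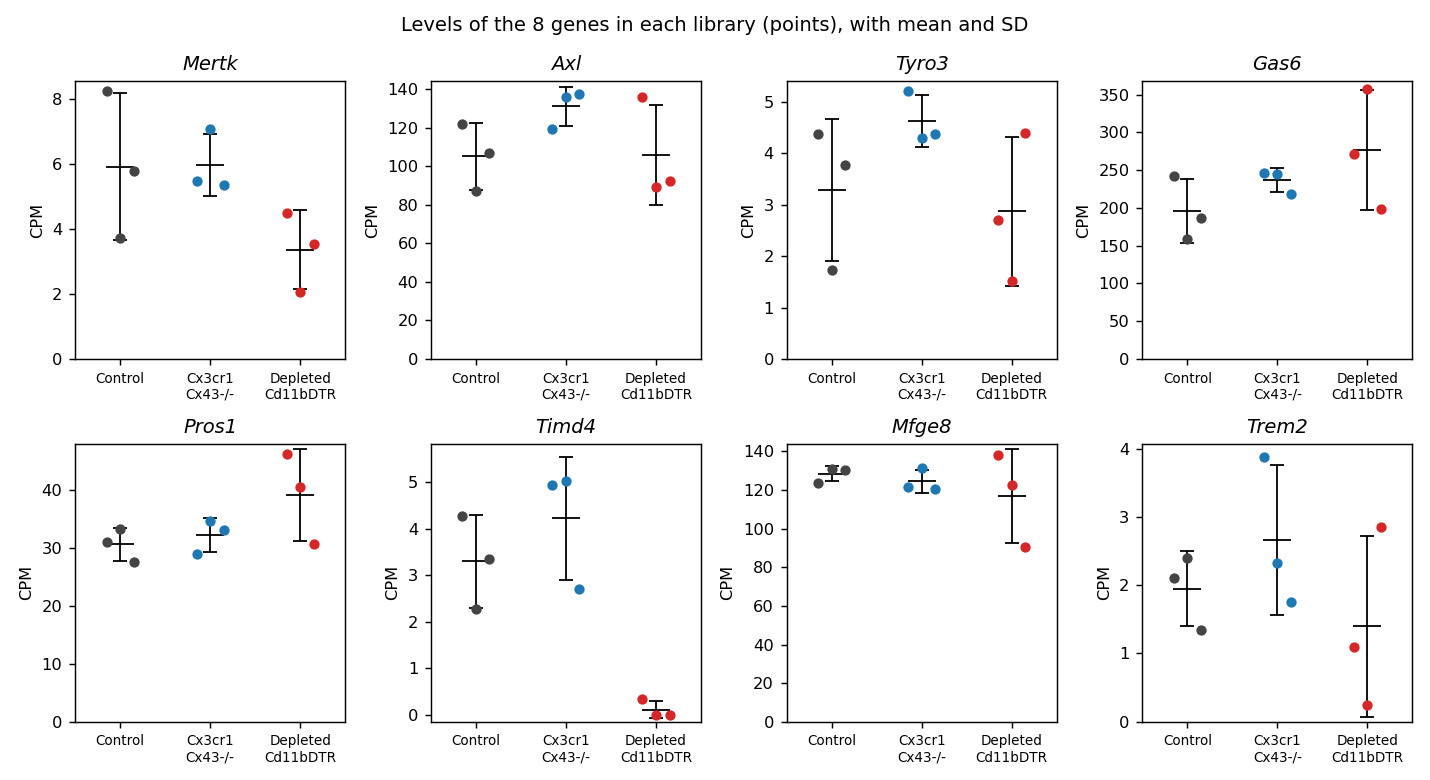
Level of each of the 8 genes (y axis, CPM, on a separate scale for each gene) in the 3 groups (x axis). Points are libraries, the long bar is the mean and the whiskers are 1 SD (n = 3). Timd4 in the depleted libraries lies at 0.33, 0 and 0 CPM, below all other libraries, while every other gene overlaps between depleted and control nodes.

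Depletion was compared with control to ask which uptake genes differ in a node depleted of macrophages. Timd4 fell, and it was the only 1 of the 8 genes called on the CPM as deposited. Among all genes tested, 36.2% were called (33% lower and 3.23% higher), and the libraries of both groups did not overlap for 41.6%, against 1 of the 8 here. With a common total 3 of the 8 were called (28.4% of all genes), and with median-of-ratios scaling 5 of the 8 (26.1% of all genes): Timd4 lower, and Gas6, Pros1 and, in the latter scaling, Axl and Mfge8 higher. On the deposited scale Mertk was at 56.8% of its control mean without passing the test, Axl and Mfge8 stood close to control, and the ligands Gas6 and Pros1 stood above it without passing.

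Timd4, the tethering receptor, was at 4.27, 2.27 and 3.35 CPM in control libraries 1, 2 and 3. In depleted libraries 7, 8 and 9 it was at 0.33, 0 and 0 CPM. All 3 depleted libraries lay below every control library, and library 7 alone held reads of the gene, about 19. A count of 0 allows up to 0.0578 CPM in library 8 and 0.0462 CPM in library 9, counting error only. The depleted mean of 0.110 ± 0.191 CPM was 3.34% of the control mean of 3.30 ± 1.0 (SD, n = 3), and the log2 change was -2.65 (SE 0.39, adjusted p = 3.1966e-05 by limma). The gene passed the filter on low values only through the other 2 groups. It was called lower under both rescalings, with log2 changes of -2.58 (common total, adjusted p = 0.000165) and -2.51 (median of ratios, adjusted p = 0.000237).

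The genes most like Timd4 were sought by the root mean square difference between log2(CPM + 0.5) profiles over the 9 libraries, each centred on its own mean. Tmtc2 was nearest, at 0.167, and stood at 6.43 CPM in control, 6.78 in Cx3cr1 Cx43-/- and 0.603 in depleted nodes on average. F13a1, which encodes the A subunit of coagulation factor XIII and is made by resident macrophages, followed at 0.186, with 49.6, 70.8 and 8.81 CPM. Ift122, a gene of transport within cilia, was at 0.261. These genes were picked for their likeness to Timd4, so their pattern is a description.

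Mertk, the engulfment receptor of resident macrophages, was at 8.24, 3.72 and 5.79 CPM in control libraries and at 4.49, 2.07 and 3.53 CPM in depleted libraries. Depleted library 7 was above control library 2, so the groups overlapped, and control library 1 held the highest value of all 9. The means were 3.36 ± 1.22 CPM in depleted and 5.92 ± 2.26 in control nodes (SD, n = 3). The log2 change of -0.72 (SE 0.33, 95% interval -1.41 to -0.04) did not pass after adjustment (limma adjusted p = 0.0892). It passed without control library 2 (-0.99, adjusted p = 0.0289), without depleted library 7 (-0.93, adjusted p = 0.0340) and with library quality weights (-0.92, adjusted p = 0.0363). Under median-of-ratios scaling it was -0.28 (adjusted p = 0.538).

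Axl, the TAM receptor that stromal and vascular cells share with macrophages, was at 121.73, 87.02 and 106.97 CPM in control and at 135.74, 89.44 and 92.56 CPM in depleted libraries. The group ranges lay over each other, with depleted library 7 the highest. The means were 105 ± 17.4 in control and 106 ± 25.9 CPM in depleted nodes (SD, n = 3), and the log2 change was -0.0039 (SE 0.21, adjusted p = 0.990 by limma). Its 95% interval ran from -0.44 to 0.43. Relative to the typical gene the value was 0.49 under median-of-ratios scaling, where Axl was called higher (adjusted p = 0.0111), and with a common total it was 0.33 (adjusted p = 0.0769).

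Tyro3, the TAM receptor best known from brain, was scarce, at 4.37, 1.73 and 3.77 CPM in control and 2.71, 1.52 and 4.40 CPM in depleted libraries. Library 2 was low in one group and library 8 in the other, and the groups overlapped. The log2 change was -0.18 (SE 0.37, limma adjusted p = 0.715), with a 95% interval from -0.94 to 0.58. Under both rescalings it was above 0, at 0.12 and 0.25, and it was not called.

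Gas6, a ligand of all TAM receptors, was at 242.61, 158.94 and 186.55 CPM in control and at 271.84, 357.79 and 199.20 CPM in depleted libraries. Libraries 7 and 8 were above all controls, and library 9 was between them. The means were 276 ± 79.4 CPM in depleted and 196 ± 42.6 in control nodes (SD, n = 3), and the log2 change was 0.48 (SE 0.23, adjusted p = 0.104 by limma). On the deposited scale Gas6 was called higher without depleted library 9 (0.69, adjusted p = 0.0123) and with library quality weights (0.65, adjusted p = 0.00917). Under the common total it was called higher by 0.81 (adjusted p = 0.00126), and under median-of-ratios scaling by 0.97 (adjusted p = 0.000323). Without library 8 the log2 change of Gas6 was 0.27 (adjusted p = 0.404). Library 8, where Gas6 was highest, also had a summed adipocyte marker level of 228.94 CPM, against 7.92 to 66.94 CPM in the other 8 libraries. In library 7, where Gas6 was also above all controls, that sum was 25.32 CPM. Any part of adipocytes in the level of Gas6 was not tested.

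Pros1 encodes protein S, an anticoagulant that also binds TYRO3 and MERTK. It was at 30.99, 33.26 and 27.54 CPM in control and at 46.19, 40.57 and 30.60 CPM in depleted libraries. Again libraries 7 and 8 were above all controls and library 9 was not. The means of 39.1 ± 7.90 in depleted and 30.6 ± 2.88 CPM in control nodes (SD, n = 3) gave a log2 change of 0.33 (SE 0.21, adjusted p = 0.218 by limma), which passed without depleted library 9 (0.50, adjusted p = 0.0308). With a common total Pros1 was called higher by 0.67 (adjusted p = 0.00186), and by median-of-ratios scaling by 0.83 (adjusted p = 0.000507). The log2 ratio of Gas6 to Pros1 within a library, which no scaling of whole libraries moves, was 2.64 ± 0.364 in control and 2.78 ± 0.303 in depleted nodes (SD, n = 3). That difference of 0.14 was within the spread (exact permutation test, two-sided, p = 0.7).

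Mfge8, the bridge to alpha-v integrins, was at 123.86, 131.18 and 130.48 CPM in control and at 138.29, 122.59 and 90.55 CPM in depleted libraries. Control libraries were close together, while the depleted ones ran from above them to below them, with library 9 lowest. The log2 change was -0.15 (SE 0.20, limma adjusted p = 0.560), with a 95% interval from -0.57 to 0.26. Under median-of-ratios scaling Mfge8 was called higher, by 0.34 (adjusted p = 0.0391), and with a common total it was at 0.18 (adjusted p = 0.214).

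Trem2, the lipid-sensing receptor of macrophages, was at 2.11, 2.40 and 1.34 CPM in control and at 1.10, 0.25 and 2.85 CPM in depleted libraries. The depleted group held both the lowest and the highest of these values, and library 8 rested on about 13 reads. The means were 1.40 ± 1.33 in depleted and 1.95 ± 0.548 CPM in control nodes (SD, n = 3), and the log2 change was -0.60 (SE 0.45, adjusted p = 0.304 by limma). The 95% interval ran from -1.54 to 0.34. Without library 8 the change was -0.06 (adjusted p = 0.927), and without library 9 it was -1.14 (adjusted p = 0.0635).

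**Figure D2:**
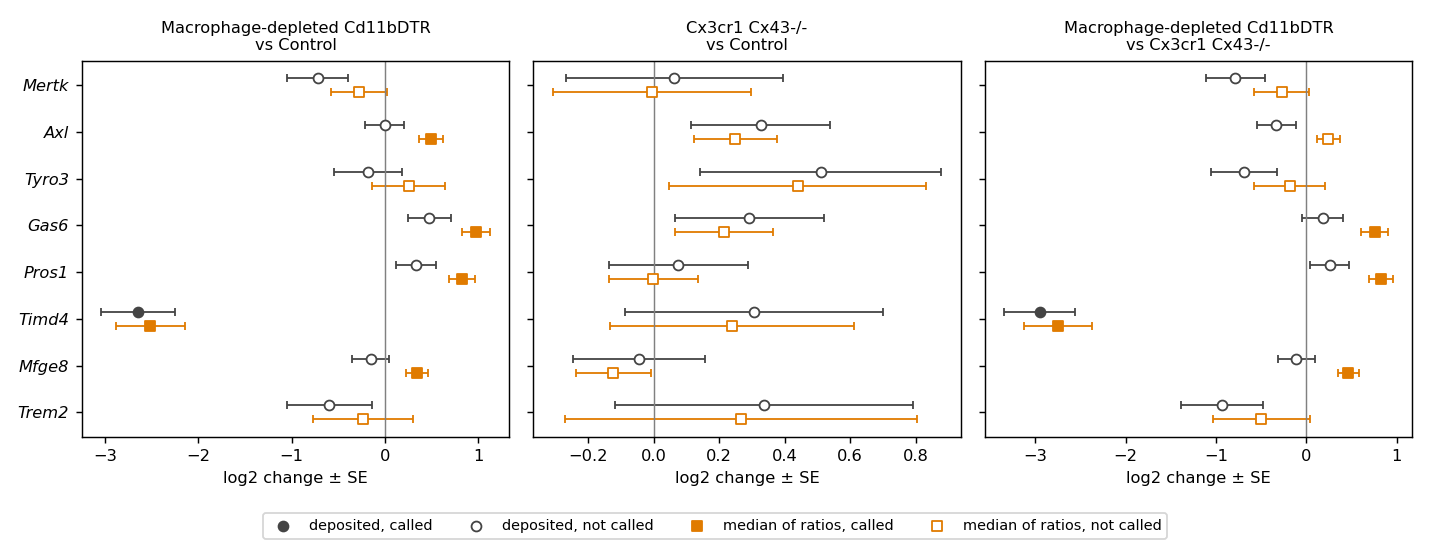
Log2 change of the 8 genes (x axis, ± SE of the limma fit, with a separate range in each panel) in the 3 comparisons. Grey circles are CPM as deposited and orange squares are median-of-ratios scaling; filled symbols are called. In depleted against control nodes only Timd4 is filled on the deposited scale, while Axl, Gas6, Pros1 and Mfge8 are filled, to the right of 0, after rescaling.

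To set the receptors against the macrophages left in the tissue, each was divided within its library by the mean log2 level of 8 resident macrophage genes (Csf1r, Cd163, Mrc1, C1qa, C1qb, C1qc, Fcgr1 and Emr1). That reference level was 4.71 ± 0.313 in control and 2.37 ± 0.225 in depleted nodes on the log2(CPM + 0.5) scale (SD, n = 3), a difference of -2.35. Fcgr1 alone of the 8 was not called lower, at 5.10 ± 2.57 CPM in depleted and 3.06 ± 0.474 in control nodes (SD, n = 3). All exact tests of ratios are of 3 libraries against 3, two-sided, and cannot give a p below 0.1. There were 18 of them, and the smallest adjusted value was 0.225.

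The log2 ratio of Mertk to the reference was -1.86, -2.29 and -2.12 in control and 0.06, -0.85 and -0.61 in depleted libraries. All depleted libraries lay above all controls, and the means differed by 1.62 (exact permutation p = 0.1, adjusted p = 0.225). The mean of the reference genes thus stood further below control than Mertk did, though Fcgr1 did not. The ratio of Trem2 to the reference was -3.60, -2.83 and -3.90 in control and -1.58, -2.63 and -0.88 in depleted libraries, higher by 1.75 with no overlap (exact permutation p = 0.1). For Axl the ratio was 1.95, 2.08 and 1.97 in control and 4.83, 4.28 and 3.92 in depleted libraries, a difference of 2.34. On the deposited scale Axl itself was level with control, so there this value restates the difference of the reference. After median-of-ratios scaling Axl was called higher. For Mertk and Trem2, too, the higher ratio comes from the reference on the deposited scale, where neither gene stood above control on average.

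The ratio of Timd4 to the reference was -2.73, -2.90 and -2.83 in control and -2.53, -3.21 and -3.62 in depleted libraries, and the groups overlapped (difference -0.30, exact permutation p = 0.4). With 2 depleted libraries at 0, that ratio rests on the pseudocount. With a pseudocount of 0.1 the difference was -1.77, with all depleted libraries below all controls, and with a pseudocount of 2 it was 0.68, with all of them above (exact permutation p = 0.1 in both). This ratio therefore did not settle whether Timd4 fell by more or by less than the reference genes. By group means, depleted Timd4 was at 3.34% of control, C1qc at 12.9%, C1qa at 16.6% and C1qb at 24.2%. Csf1r, Mrc1 and Emr1 were at 8.52, 3.22 and 4.93 CPM in depleted against 59.4, 40.3 and 14.6 in control nodes. Cd163 was at 0.217 against 13.2 CPM, a smaller share of control than that of Timd4, while Fcgr1 stood above control. The depleted mean of Timd4 rests on library 7 alone. Within the TAM receptors, the log2 ratio of Axl to Mertk was 4.09 ± 0.284 in control and 4.81 ± 0.302 in depleted nodes (SD, n = 3), higher by 0.72 with no overlap (exact permutation p = 0.1).

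**Figure D3:**
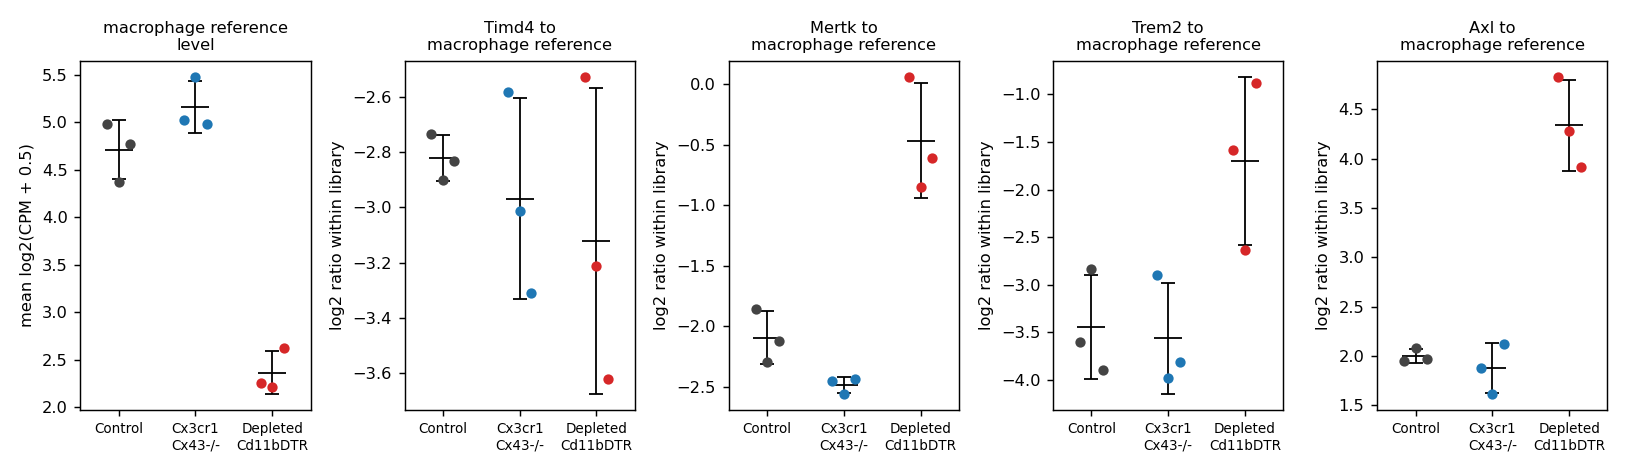
The first panel plots the macrophage reference level (y axis, mean log2(CPM + 0.5) of 8 genes) and the others the log2 ratio of Timd4, Mertk, Trem2 and Axl to it within each library, by group (x axis). Points are libraries, with mean and SD (n = 3). In depleted libraries the reference has a mean of 2.37 and the ratios of Mertk, Trem2 and Axl lie above all control libraries, while that of Timd4 overlaps at the pseudocount used.

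The second comparison asked whether deleting connexin 43 in Cx3cr1-expressing cells, with the macrophages in place, altered these genes. None of the 8 was called by limma, all overlapped between groups, and none had an unadjusted p under 0.05. Over all genes tested the called share was 0.00774%, a single gene, Cytl1, and 191 genes had an unadjusted p under 0.05. The number of genes called after adjustment depended on the fit. It was 0 with a pseudocount of 0.1 or without a filter and 442 with library quality weights. None of the 8 was called under any of these. Groups did not overlap for 8.94% of genes. The 95% intervals still allow changes of moderate size, and their spread estimate includes the depleted libraries.

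Mertk was at 5.46, 7.08 and 5.36 CPM in libraries 4, 5 and 6 of Cx3cr1 Cx43-/- nodes, inside the control range, with a log2 change of 0.06 (interval -0.62 to 0.75). Timd4 was at 4.94, 5.03 and 2.70 CPM, of which 2 libraries stood above all controls, with a change of 0.31 (interval -0.51 to 1.12). Axl was at 119.56, 136.20 and 137.68 CPM, again with 2 libraries above the controls, with a log2 change of 0.33 (interval -0.11 to 0.76). In each case the limma adjusted p was 1.

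Tyro3 was at 5.22, 4.30 and 4.38 CPM, a log2 change of 0.51 (interval -0.25 to 1.27). Gas6 was at 246.64, 245.49 and 218.53 CPM and Pros1 at 29.01, 34.69 and 33.08 CPM, with changes of 0.29 and 0.08. Mfge8, at 121.69, 131.44 and 120.45 CPM, stood at 96.9% of its control mean, with a change of -0.05. Trem2 was at 3.88, 2.33 and 1.76 CPM, a change of 0.34 (interval -0.60 to 1.28). For these genes too the limma adjusted p was 1. The resident macrophage markers summed to 388.77 to 519.59 CPM.

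The macrophage reference level was 5.16 ± 0.274 (SD, n = 3), higher than control by 0.45. Set against that reference, Mertk was at -2.45, -2.56 and -2.44 in Cx3cr1 Cx43-/- libraries, all below the control values, a difference of -0.39 (exact permutation p = 0.1, adjusted p = 0.225). The other ratios overlapped. Those of Timd4, Trem2 and Axl to the reference differed from control by -0.15, -0.12 and -0.13, with exact permutation p of 0.6, 0.7 and 0.5. The ratio of Axl to Mertk was 4.35 ± 0.194 (SD, n = 3), higher by 0.26 (exact permutation p = 0.3).

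The third comparison set depleted against Cx3cr1 Cx43-/- nodes. It uses the same depleted libraries as the first, so the comparisons are not independent. Timd4 was the only 1 of the 8 called, with a log2 change of -2.95 (SE 0.39, adjusted p = 8.9016e-06 by limma) and a depleted mean at 2.60% of the other. Of all genes tested, 43.4% were called, 40.7% lower and 2.69% higher. Libraries did not overlap for Timd4 and Mertk, 2 of the 8, against 54% of all genes. With a common total 3 of the 8 were called (29.4% of all genes), and with median-of-ratios scaling 4 of the 8 (25.9%).

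Mertk was at 5.36 to 7.08 CPM in Cx3cr1 Cx43-/- and at 2.07 to 4.49 CPM in depleted libraries. The log2 change was -0.79 (SE 0.33, adjusted p = 0.0575 by limma). It passed without depleted library 7 (-0.997, adjusted p = 0.0226) and was -0.27 under median-of-ratios scaling. For Trem2 the log2 change was -0.93 (SE 0.45, adjusted p = 0.0965) and passed without depleted library 9 (-1.47, adjusted p = 0.0195). For Tyro3 it was -0.69 (adjusted p = 0.127) and likewise passed without library 9 (-1.01, adjusted p = 0.0483). For Axl it was -0.33 (adjusted p = 0.203) and passed without library 7 (-0.52, adjusted p = 0.0228), whereas after rescaling its value was above 0, at 0.06 and 0.24. Gas6 was at 0.18 and Pros1 at 0.26 (adjusted p = 0.524 and 0.327), and both were called higher with a common total (0.57 and 0.64) and under median-of-ratios scaling (0.76 and 0.83). Mfge8 was at -0.11 (adjusted p = 0.674) and was called higher, by 0.46, under median-of-ratios scaling only.

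Beyond the 8 genes, 65 genes that act in the uptake of apoptotic cells were listed by role, and 56 of them passed the filter. In depleted against control nodes 4 were called higher and 18 lower, 39.3% of those tested, near the 36.2% of all genes, with a median log2 change of -0.34 beside -0.49 for all genes tested. After median-of-ratios scaling 13 were called higher and 8 lower, 37.5% against 26.1% of all genes, with a median of 0.12. The counts by role below are of few genes each. They are to be read beside the 33% of all genes called lower and the 3.23% called higher on the deposited scale. After median-of-ratios scaling 1722 of the 12925 genes tested were called higher and 1651 lower. In Cx3cr1 Cx43-/- against control none of the 56 was called by limma, and their median was 0.16.

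Of 11 other receptors for phosphatidylserine, 4 passed the filter and 2 were called lower. Stab1 (stabilin-1), a scavenger receptor of macrophages and endothelium, was at 84.15, 45.55 and 61.56 CPM in control and at 16.79, 16.69 and 14.04 CPM in depleted libraries, with no overlap (log2 change -1.94, limma adjusted p = 1.3041e-06). Scarf1, which binds C1q on dying cells and is made by endothelium too, was at 6.24 ± 1.16 against 14.5 ± 0.807 CPM (SD, n = 3; log2 change -1.16, adjusted p = 0.000983). Both remained called lower after median-of-ratios scaling. Cd300a and Cd300lb, members of a family of lipid-binding myeloid receptors, had log2 changes of 0.03 and -0.14 and were not called. The Timd4 relatives Havcr1 and Timd2, named after their values were seen, were listed at 0 in all 9 libraries. Havcr2, also among the 11 and likewise named after its values were seen, did not pass the filter and was not tested. It was at 0.61, 0.02 and 0.19 CPM in control and at 0.98, 0.88 and 1.02 CPM in depleted libraries.

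None of the 8 scavenger receptors, integrin chains and LRP1 was called by limma on the deposited scale. The 4 with the smallest p were Msr1, the class A scavenger receptor of macrophages (log2 change 1.35, adjusted p = 0.0531), the lipoprotein receptor Scarb1 (-0.58, adjusted p = 0.0993), the integrin chain Itgb5 (-0.40, adjusted p = 0.107) and Lrp1 (0.30, adjusted p = 0.248), a receptor for calreticulin on dying cells. Msr1 was at 4.93, 0 and 2.41 CPM in control and 3.73, 6.89 and 3.65 CPM in depleted libraries, which overlapped, with control library 2 lowest. After median-of-ratios scaling 4 of the 8 were called higher: Msr1, Lrp1 and, named after their values were seen, Itgav and Cd36. Over all genes that scaling gave 1722 of 12925 called higher.

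Other bridging proteins and opsonins split in direction. Of 9 tested, 3 were called lower and 3 higher, and the split was 3 lower and 4 higher after median-of-ratios scaling. The lower ones were the chains of C1q, the complement protein that coats dying cells: C1qc with a log2 change of -2.91 (limma adjusted p = 3.3729e-08), C1qa with -2.53 (adjusted p = 2.5888e-08) and C1qb with -1.99 (adjusted p = 5.2931e-07). Among the higher ones was Ptx3, a pentraxin that binds dying cells and C1q, at 3.58, 9.37 and 5.37 CPM in control and 43.92, 29.60 and 23.05 CPM in depleted libraries (log2 change 2.35, adjusted p = 8.3707e-06). Named after their values were seen, the other two were Anxa1 (0.87, adjusted p = 0.00295) and the galectin Lgals3 (1.12, adjusted p = 0.00305).

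Of 8 genes of find-me and do-not-eat-me signals, 2 were called lower, no larger a share than the 33% of all genes. These were Sirpa, the CD47 receptor that restrains engulfment, at 23.1 ± 5.29 against 39.1 ± 4.29 CPM (SD, n = 3; -0.76, limma adjusted p = 0.00872), and the scramblase Xkr8, which exposes phosphatidylserine in dying cells (-1.01, adjusted p = 0.0481). The nucleotide channel Panx1 had a log2 change of 1.01 (adjusted p = 0.0594) and the nucleotide receptor P2ry2 of -0.57 (adjusted p = 0.129), and neither was called. After median-of-ratios scaling Panx1 was called higher and none lower.

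Of 10 genes of the engulfment machinery, 3 were called lower, close to the 33% of all genes: Vav3 with a log2 change of -1.37 (limma adjusted p = 0.00261), Dock1, a Rac activator, with -0.92 (adjusted p = 0.00295) and the transporter Abca7 with -0.77 (adjusted p = 0.0194). Elmo2, a partner of DOCK proteins, did not pass, at -0.61 (adjusted p = 0.0677). Of 10 genes of the response to the engulfed cell, 4 were called lower, again near the 33% of all genes: the nuclear receptors Rxra (-0.93), Nr1h2 (-0.78) and Ppard (-1.04) and the cholesterol exporter Abcg1 (-1.37), with adjusted p of 0.00261, 0.00983, 0.0181 and 0.00955. After median-of-ratios scaling each of these role groups had 1 gene called lower, with 1 higher in the first and 2 higher in the second.

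Adam10 and Adam17, proteases that shed AXL and MERTK from the cell surface, were called lower, with log2 changes of -0.55 (limma adjusted p = 0.0425) and -0.69 (adjusted p = 0.0214), and neither was called under either rescaling. Of 6 TREM2 partners and ligands 5 were tested. The lipoprotein gene Apoe, whose product TREM2 binds, was at 332 ± 68.2 CPM in depleted and 808 ± 51.9 in control nodes (SD, n = 3; -1.30, adjusted p = 0.000187). Clu (clusterin), another TREM2 ligand, was at 1183.86, 620.27 and 906.84 CPM in control and 2425.11, 2125.75 and 1188.18 CPM in depleted libraries (1.07, adjusted p = 0.00611). The kinase Syk was called lower (-0.77, adjusted p = 0.0351) but not under either rescaling (-0.44 and -0.28, adjusted p = 0.111 and 0.319), and the lipase Plcg2 was not (-0.86, adjusted p = 0.0653). Tyrobp, the adaptor of TREM2, is outside the naming rule and was looked up for that role: it was at 6.33, 12.85 and 4.62 CPM in depleted libraries 7, 8 and 9, highest where Trem2 was lowest, against 9.32 to 10.13 CPM in control (adjusted p = 0.270).

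**Figure D4:**
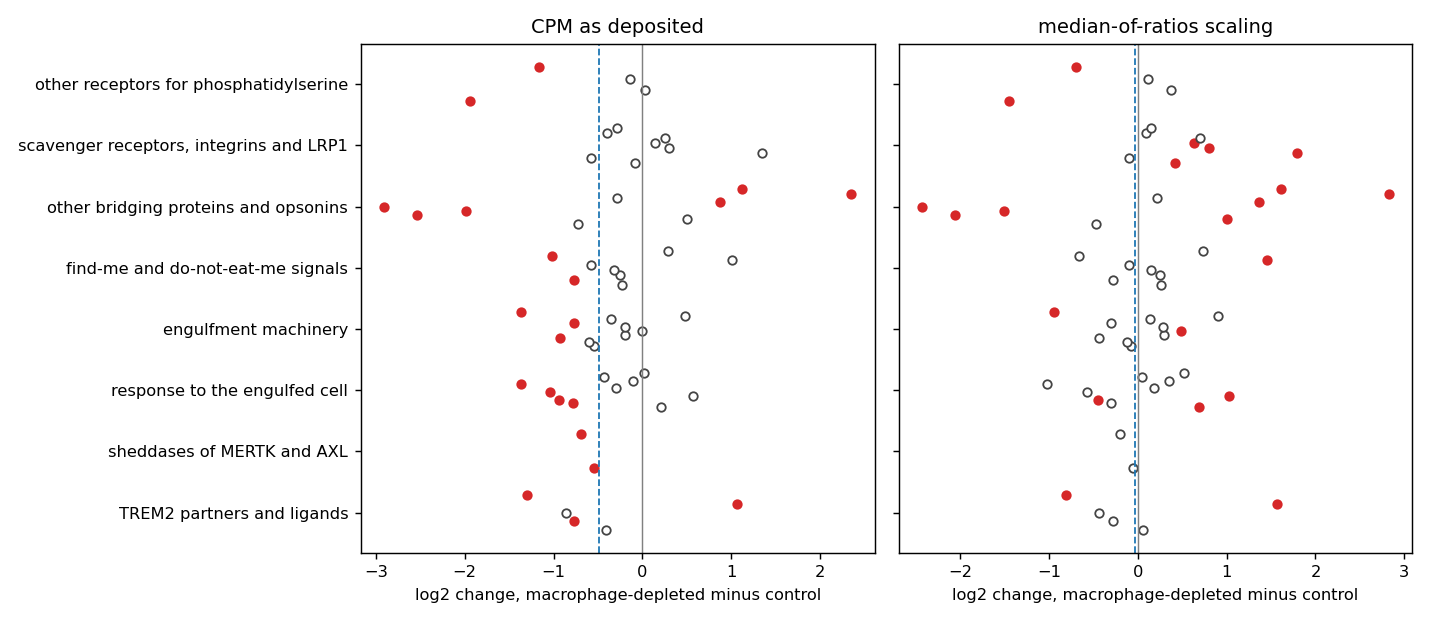
Log2 change of the 56 tested genes of apoptotic cell uptake, macrophage-depleted minus control (x axis), by role (rows), for CPM as deposited (left) and after median-of-ratios scaling (right). Each point is a gene, filled red where called, and the dashed line is the median of all genes tested (-0.49 and -0.03). The C1q chains, Stab1 and Scarf1 lie to the left and Ptx3 to the right in both panels, while Adam10 and Adam17 are filled only on the left.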

How the data were processed

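RNA-seq of microdissected AV nodes gave 9 libraries, 3 in each of 3 groups, mapped to groups by their labels. The authors deposited CPM per gene symbol, with 2 decimals. Per the labels' protocols, total RNA was DNase-treated and made into strand-directional libraries. The tools edgeR, HTSeq 0.6.0 and STAR 2.3.0 and the build mm9 are named in the submitters' processing notes, in roles not given in the sources used here. No count model was fitted, since rounding kept reads from being recovered. No 2 libraries held identical values.

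In R 4.3.3, limma 3.58.1 fitted log2(CPM + 0.5) over all 9 libraries at once, with trended empirical Bayes variance and two-sided contrasts. Genes had at least 1 CPM in at least 3 libraries (12925 of 34198). The fit was tested on simulated data with 200 changed genes. Ratios within libraries were tested by exact permutation. From the planned macrophage reference and marker list 1 gene was left out after the results were known, and it is not reported here. The alternatives tried were a pseudocount of 0.1 or 2, no filter on low values or a mean of at least 5 CPM, 2 rescalings, fits of 2 groups, library quality weights and each library left out.

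The 8 genes and all lists were chosen with earlier results of these data known. Named were the 8 genes, up to 4 genes per role with the smallest p in depleted against control, and the 3 tested genes most like a called gene. Promoter windows and names came from RefSeq (GRCm38.p6), in which all 8 genes matched, and exon lengths from GENCODE M21. No protein sequences were used. Figures were drawn with matplotlib 3.10.9.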

Additional observations from a re-analysis of the deposited data

How the results depend on the processing

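The call of Timd4 held in every alternative that could test it, with log2 changes of -2.89 to -2.46 against control and -3.21 to -2.82 against Cx3cr1 Cx43-/- when each library was left out in turn. Under the filter at a mean of 5 CPM, Timd4, Tyro3 and Trem2 were not tested. None of the other genes of the 8 was then called in either comparison with depleted nodes. No paired analysis was possible because the library numbers run from 1 to 9 over the groups and are shared by none.

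Genes of the 8 called in depleted against control numbered 3 with a common total, 5 with median-of-ratios scaling, 3 with library quality weights and 1 to 3 with a library left out. Against Cx3cr1 Cx43-/- they numbered 3, 4, 4 and 1 to 3. Over all genes, leaving out a library gave 2667 (without control library 1) to 6241 calls in the first comparison and 3284 (without Cx3cr1 Cx43-/- library 5) to 7036 in the third, where median-of-ratios scaling gave 3352. In Cx3cr1 Cx43-/- against control, the genes called were 0 with a pseudocount of 0.1, 2 with a pseudocount of 2, 0 without a filter, 442 (384 higher) with library quality weights and 0 to 2 with a library left out; 0 of the 8 were called in any of these. The cause was not tested.

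Against control, depleted Axl turned positive with a common total (0.33) and median-of-ratios scaling (0.49), as did Mfge8 (0.18 and 0.34) and Tyro3 (0.12 and 0.25). Against Cx3cr1 Cx43-/- the same held for Axl (0.056 and 0.24) and Mfge8 (0.28 and 0.46). In Cx3cr1 Cx43-/- against control Mertk was -0.0055 and Pros1 -0.00086 under median-of-ratios scaling, and Mertk -0.019 with quality weights. The ratio of Timd4 to the macrophage reference was 0.68 against control and 0.88 against Cx3cr1 Cx43-/- with a pseudocount of 2, and -1.77 and -1.65 with a pseudocount of 0.1.

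With a library left out, signs turned for depleted against control in Axl (-0.20 to 0.11), Tyro3 (-0.53 to 0.14), Mfge8 (-0.28 to 0.019) and the ratio of Gas6 to Pros1 (-0.059 to 0.30). For Cx3cr1 Cx43-/- against control they turned in Mertk (-0.21 to 0.32) and the reference ratios of Timd4 (-0.34 to 0.024), Trem2 (-0.45 to 0.19) and Axl (-0.25 to 0.0028). For depleted against Cx3cr1 Cx43-/- they turned in Gas6 (-0.023 to 0.40), Mfge8 (-0.24 to 0.065), the ratio of Gas6 to Pros1 (-0.25 to 0.045) and the reference ratio of Timd4 (-0.45 to 0.097). In depleted library 8 Trem2 rested on about 13 reads, and Timd4 had 0 reads in libraries 8 and 9.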

Other observations

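Genes of lipid-associated macrophages, a state in which Trem2 is usually high, were measured in the same libraries. Of 6 listed, 3 were called higher in depleted than in control nodes by limma, beside 3.23% of all genes. With a common total 4 were called higher, beside 1136 of all 12925 genes tested. With median-of-ratios scaling 5 were, beside 1722 of the 12925. Spp1 (osteopontin) was at 7.52, 19.64 and 14.78 CPM in control and at 549.97, 675.19 and 536.74 CPM in depleted libraries (log2 change 5.44, adjusted p = 2.0329e-12). Gpnmb was at 17.9 ± 2.41 against 10.8 ± 3.42 CPM (SD, n = 3; 0.74, adjusted p = 0.0327), and Lgals3 is the third. On the deposited scale Cd9, Fabp5 and Lpl were not called. Cd9 was called higher under both rescalings and Lpl under median-of-ratios scaling. Fabp5 went the other way, at 2.46 ± 1.27 CPM in depleted and 4.68 ± 3.32 in control nodes (SD, n = 3). Against Cx3cr1 Cx43-/- nodes 3 of the 6 were called higher and 1 lower by limma on the deposited scale. Trem2 was lowest of the 9 libraries (0.25 CPM, about 13 reads) in depleted library 8, where Spp1 was highest. Any relation between Trem2 and Spp1 was not tested.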
